A study of Mus musculus with 39 samples.

Results

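Mouse lung fibroblasts were exposed for 2 h to the highest of 3 doses of C1q, 100 µg/ml, and their RNA was compared with that of untreated cells. The comparison rests on 6 of the 39 libraries of the series, the 3 labelled 100 µg/ml and 2 h and the 3 labelled untreated and 0 h, chosen by those labels alone. All cells came from lungs of wild-type C57BL/6 mice and were cleared with magnetic beads of CD31, CD146 and Ter119 positive cells and of those with CD45 or EpCAM. They were grown in medium with serum, moved to 24-well plates and kept without serum for 24 h before C1q was added. No group received the vehicle alone for 2 h, so the time spent in culture, the handling of the medium and C1q cannot be told apart in the comparison with untreated cells. The 3 libraries each of 1 and 10 µg/ml were also taken at 2 h, so the doses were compared with each other at a fixed time. With no vehicle group for any dose, the dose of C1q cannot be told apart there from what was added with it. The labels give neither the source nor the purity of the C1q and do not say whether replicates came from separate cultures or mice, so p-values measure the spread between libraries, which may be technical. Values are counts per gene from sequencing the 5′ ends of poly(A) RNA, with totals of 1806106 to 2519096 per library, given below as CPM, the counts scaled to a common library size.

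C1q is the recognition molecule of the classical complement pathway, a bundle of collagen-like stalks with globular heads that binds antibody complexes, dying cells and pathogens. It also binds several proteins of cell surfaces, and fibroblasts both meet it in injured tissue and make other complement proteins. A stimulus to a resting cell is commonly followed within the first hours by a wave of immediate early genes, which need no new protein for their transcription and largely encode transcription factors such as the AP-1, EGR and NR4A families. Genes of feedback inhibitors, cytokines and secreted matrix proteins follow them.

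The cells matched their label in their marker genes, with the collagen genes Col1a1 and Col1a2 at 1169 to 1503 and 1428 to 1636 CPM in the untreated libraries and the platelet-derived growth factor receptor gene Pdgfra at 526 to 616 CPM. By edgeR and by DESeq2, 0 of the 8 fibroblast markers were called at 2 h, with 1 at an unadjusted p under 0.05. The lymphocyte marker Ms4a1 had 0 counts in all 6 libraries, and none of 8 lymphocyte markers had enough counts to be tested. Transcripts used as markers of other cell types were present, and whether fibroblasts made some of them was not tested. The 12 myeloid markers summed to 252 to 280.5 CPM in untreated libraries and 230.1 to 256 CPM at 100 µg/ml, with 0 called by either tool and 1 at an unadjusted p under 0.05. The 10 epithelial markers summed to 575 to 649 CPM and then to 452 to 511 CPM, with 1 called lower. The 7 endothelial markers went from 75.4 to 83.1 CPM to 53.8 to 59.2 CPM, and the 6 mesothelial markers from 327 to 362 CPM to 249 to 291 CPM, each with 1 called lower. All 10, 7 and 6 of these had estimates below 0, with medians of -0.35, -0.51 and -0.36 on the log2 scale. Over all tested genes the median was -0.03, and 2.02% were called lower. The part of these marker shifts in the falls described below was not tested. Fewer cells of a type cannot be told apart from less RNA per cell in such bulk samples.

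The 3 libraries at 100 µg/ml were not alike, for a reason that was not tested. In the second and the third, 49 rows of the table were at least 2 times as high as in the first (mean over the group of at least 10 CPM), and these rows summed to 2890 CPM in the first and to 14298 and 14899 CPM in the others. Untreated libraries held 3034 to 3288 CPM in the same rows, the 6 libraries of the lower doses 2532 to 3864 CPM, and those of 100 µg/ml at 24 h 7274 to 9418 CPM. The unnamed transcript 2810407A14Rik was at 231, 4444 and 4732 CPM in the 3 libraries of the dose, the receptor gene Tnfrsf26 at 29.96, 1265 and 1369.9 CPM against 26.4 to 34.2 CPM in untreated cells, and the zinc finger gene Zbtb38 at 427, 1393 and 1484 CPM. These rows were chosen after their values were seen. Of them, 26 are among the genes called higher below, so that 427 calls remain outside them. No gene named for its size of change, and no member of a gene list below, is among them. The same count of rows was 38 for the second library of 1 µg/ml and 2 to 20 for the other libraries compared. Leaving these rows out of the counts moved the total called against untreated cells from 744 to 713. With the first library as the only one of the dose, assumed to vary like the other groups, 226 genes were called. Of the genes given as changed below, Bdnf, Ccn1, Dusp10, Hk2, Id2, Nfkb2, Pim1, Skil, Slc3a2 and Txnip were then not called, besides those said there to lose a call.

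Against untreated cells, 453 genes were higher and 291 lower after 2 h at 100 µg/ml, of 14419 tested. Calls are by edgeR's quasi-likelihood test at a Benjamini-Hochberg adjusted p under 0.05, fitted over all 39 libraries. These are 3.14% and 2.02% of the genes tested, and 5.16% in sum. Counts of called members on the gene lists below stand beside these shares. The median difference over all tested genes was -0.03 on the log2 scale, and over called genes it was 0.73 for rises and -0.70 for falls. A change of at least 2-fold was called for 200 genes (1.39%), of which 135 were rises and 65 falls. In 421 of the 453 and 284 of the 291, every library of one group lay beyond every library of the other, which held for 23.9% of all genes tested. The call was kept in each of the 6 fits that left out a library by 195 of the rises and 80 of the falls. The total was 466 without the second untreated library, and 475 genes were called when the dose lacked its second library. The 15 rises and 15 falls named for their size below are the largest among the 242 genes that also had a mean log2 CPM of at least 3, groups that did not overlap, a call kept in all 6 of these fits and a settled symbol.

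**Figure D1:**
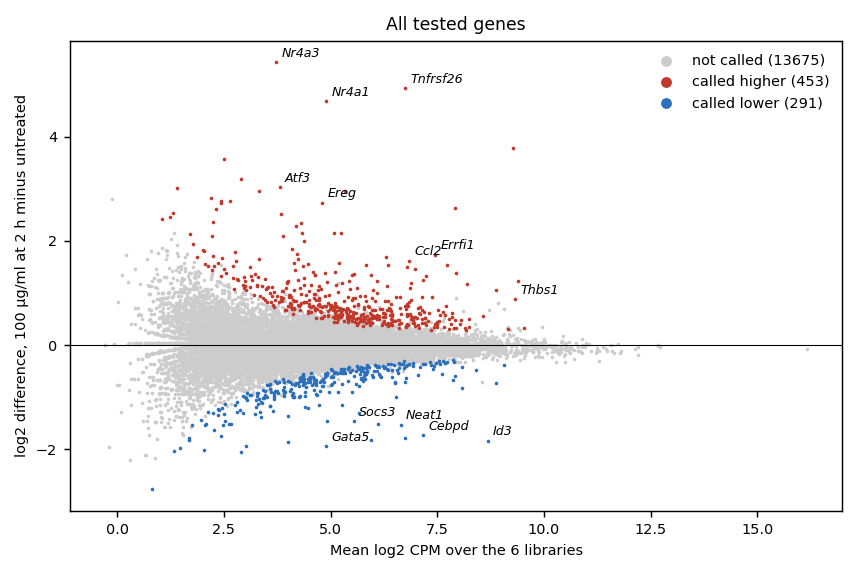
Each point is a tested gene, with its mean log2 CPM over the 6 libraries on the horizontal axis and its log2 difference between 100 µg/ml at 2 h and untreated cells on the vertical axis. Red points are the 453 genes called higher and blue points the 291 called lower, and the labelled Tnfrsf26 is a row on which the libraries of the dose differ.

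Immediate early genes were among the largest rises. Of the 26 tested on a list of immediate early transcription factor genes, 21 were called higher and 1 lower, beside 3.14% and 2.02% of all tested genes, and the median difference was 1.07. Of these, 18 were called higher with the first library alone for the dose. The largest rise of all was that of Nr4a3 (chromosome 4, 48045078 to 48086447 of GRCm38), 1 of 3 genes of the NR4A family of orphan nuclear receptors. It was at 2.004, 1.58 and 1.28 CPM in the 3 untreated libraries and at 74.01, 83.8 and 57.5 CPM after C1q, a log2 difference of 5.43 ± 0.26 (SE; edgeR adjusted p = 5.89e-21). Its sister gene Nr4a1 (chromosome 15, 101253902 to 101274795) went from 4.81, 5.26 and 6.81 CPM to 163, 174 and 94.8 CPM, or 4.67 ± 0.27. The third library of the dose was the lowest of its group for both, and all 3 lay far above every untreated library. Nr4a2 (chromosome 2, 57106830 to 57124003) stood at 5.21, 4.74 and 6.81 CPM and rose to 29.5, 40.9 and 26.3 CPM (2.52 ± 0.25).

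**Figure D2:**
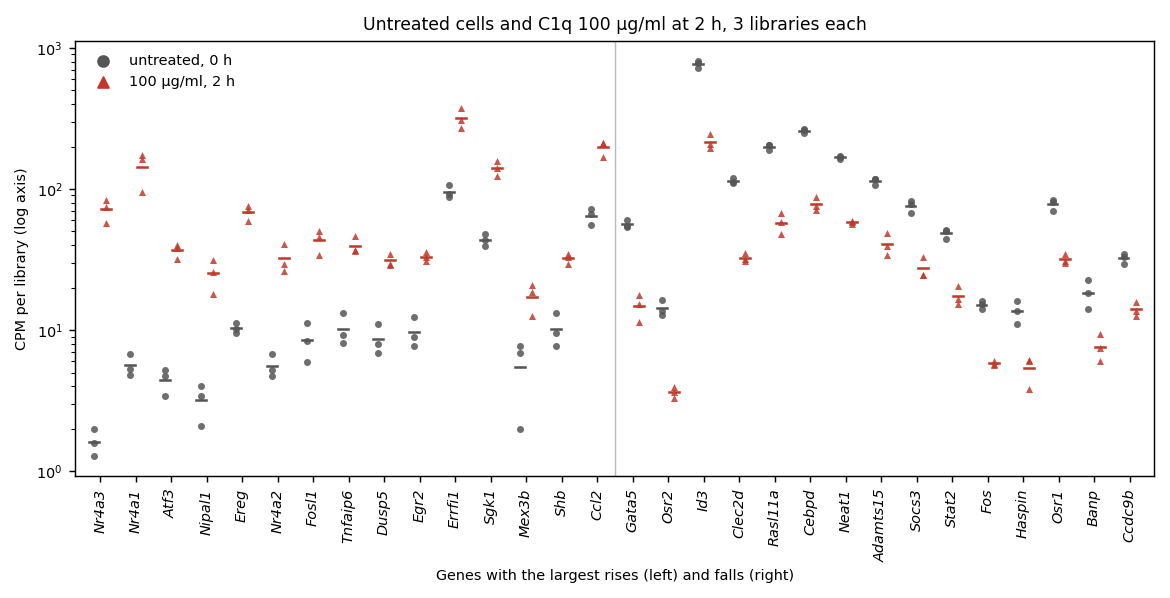
Levels in CPM, on a log axis, of the 15 rises (left) and 15 falls (right) named for their size in each untreated library (grey circles) and each library of 100 µg/ml at 2 h (red triangles), with lines at the group means. In none of the 30 genes do the groups overlap, which was a condition for naming them.

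Atf3, a stress-induced member of the ATF/CREB family of transcription factors, was at 5.21, 4.74 and 3.41 CPM in untreated cells and 32.2, 38.5 and 39.99 CPM at 100 µg/ml (3.03 ± 0.26). The members of the AP-1 dimer moved in different directions. Fosb rose from 2.004, 0.526 and 1.28 CPM to 15.9, 21.5 and 10.4 CPM (3.56 ± 0.41) and Fosl1, which encodes Fra-1, from 11.2, 8.42 and 5.96 CPM to 45.8, 50.2 and 33.96 CPM (2.34 ± 0.20). Fos itself was lower in every library of the dose, at 5.73, 5.67 and 6.03 CPM against 16.03, 15.3 and 14.05 CPM (-1.38 ± 0.23; edgeR adjusted p = 5.49e-05). Junb, at 0.37, and Fosl2, at 0.29, were not called, and Jund rose by 0.59 ± 0.12.

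Among the EGR zinc finger genes, Egr2 went from 12.4, 8.95 and 7.66 CPM to 35.7, 30.8 and 32.9 CPM (1.75 ± 0.21), Egr3 from 1.202, 1.05 and 3.83 CPM to 11.9, 17.8 and 13.1 CPM (2.77 ± 0.39), and Egr1 from 41.3 to 48.5 CPM to 84.9 to 100.4 CPM (1.07 ± 0.12). Egr4 had too few counts for a test, with 0 counts in the 3 untreated libraries and 6, 10 and 3 at 100 µg/ml. Klf4, a Krüppel-like factor, rose by 1.46 ± 0.12, the small Maf gene Maff by 1.19 ± 0.12 and its relative Mafk by 1.07 ± 0.15. Myc, a driver of growth, rose by 1.34 ± 0.21 and Btg2, an antiproliferative gene, by 0.69 ± 0.12. For Ier2, Klf6 and Klf10, smaller rises of 0.57, 0.34 and 0.76 lost the call in 4, 4 and 3 of the 6 fits that left out a library.

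Several of these genes are known targets of CREB, which binds the cAMP response element, and 6 of the 15 tested on a list of cAMP and CREB target genes were called higher and 0 lower (median 0.58). Of those 6, Nr4a1, Nr4a2, Nr4a3 and Fosb are on the immediate early list as well, and Gem, a small GTPase gene, rose by 1.45 ± 0.21. The sequences before the RefSeq start sites (GRCm38.p6, 250 bases each) of the named rises were searched on both strands for the core TGACG of this element, of which the full palindrome is TGACGTCA. Of the 15 named rises, 12 had an entry and 9 of these held the core, as did 11 of the 15 with an entry among the 21 immediate early genes called higher and 3 of the 9 with an entry among the 15 named falls. It was found in 29.4% of the 11009 tested genes with an entry, and the full palindrome in 2.82%. The full palindrome was in 1 of the 12 named rises (Errfi1), 2 of the 15 immediate early genes (Btg2 and Maff) and 0 of the 9 falls. The sets of rises overlap, since Atf3, Egr2, Nr4a1, Nr4a2 and Nr4a3 hold the core in both. In Nr4a1 the core occurs at -233, -213, -69 and -40 from the start site and in Nr4a3 at -231, -213, -205 and -147. The 4 named rises whose window holds the core and lies wholly outside the annotated gene are shown 5′ to 3′, with each core in capitals on either strand, to let its spacing be seen. They lie at chr2:57124004-57124253 on the minus strand (Nr4a2), chr1:191183334-191183583 on the minus strand (Atf3), chr19:53528895-53529144 on the plus strand (Dusp5) and chr7:82867083-82867332 on the plus strand (Mex3b).
Nr4a2: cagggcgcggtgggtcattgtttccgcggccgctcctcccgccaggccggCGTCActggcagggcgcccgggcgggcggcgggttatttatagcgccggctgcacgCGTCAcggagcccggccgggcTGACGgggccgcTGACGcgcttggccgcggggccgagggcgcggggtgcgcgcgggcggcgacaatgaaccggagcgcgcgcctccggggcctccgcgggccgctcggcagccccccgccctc
Atf3: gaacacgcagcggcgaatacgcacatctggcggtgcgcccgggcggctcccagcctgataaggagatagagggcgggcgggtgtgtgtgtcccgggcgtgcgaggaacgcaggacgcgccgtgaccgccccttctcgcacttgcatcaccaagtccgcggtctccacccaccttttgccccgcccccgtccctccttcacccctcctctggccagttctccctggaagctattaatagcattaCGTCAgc
Dusp5: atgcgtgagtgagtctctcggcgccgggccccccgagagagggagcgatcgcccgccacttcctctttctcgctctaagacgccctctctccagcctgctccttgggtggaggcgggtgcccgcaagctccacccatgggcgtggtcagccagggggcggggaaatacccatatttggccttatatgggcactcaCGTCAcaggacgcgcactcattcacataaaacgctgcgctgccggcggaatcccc
Mex3b: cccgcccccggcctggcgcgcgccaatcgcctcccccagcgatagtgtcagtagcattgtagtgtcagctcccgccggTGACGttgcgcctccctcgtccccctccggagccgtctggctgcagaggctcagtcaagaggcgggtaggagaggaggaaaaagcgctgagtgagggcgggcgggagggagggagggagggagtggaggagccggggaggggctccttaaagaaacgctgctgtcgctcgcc
Nr4a2 carries 4 cores, at -200, -144, -123 and -111, and the others 1 each, at -7 in Atf3, -55 in Dusp5 and -172 in Mex3b. Dusp5 and Egr2 among the named rises, and Egr2 and Srf among the 15 immediate early genes, also hold matches to the CArG box. This is the binding site of serum response factor, found in 1.45% of genes. The AP-1 site TGANTCA was found in 5.79% of genes. It was in 1 of the 12 named rises (Tnfaip6) and 0 of the 15 immediate early genes. Both forms were in 0 of the 9 falls, and neither is in capitals above. All of these are matches of letters in a short window, and no binding was measured.

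Growth factor signalling through the epidermal growth factor receptor and ERK kinases was represented among the rises by the ligand gene Ereg and by genes of inhibitors. Ereg (chromosome 5, 91074617 to 91093649), which encodes the ligand epiregulin, went from 11.2, 9.47 and 10.2 CPM to 71.4, 76.1 and 59.2 CPM (2.73 ± 0.18; edgeR adjusted p = 1.46e-15). Errfi1, whose protein inhibits that receptor, went from 87.8, 92.6 and 106 CPM to 310.1, 372 and 270.05 CPM (1.74 ± 0.13). They were the 2 members called of 9 tested on the list of receptor and ligand genes. The heparin-binding ligand gene Hbegf was at 0.39 and the receptor gene Egfr at 0.01, neither called. Of 16 ERK feedback genes, 5 were higher and 0 lower (median 0.38). Dusp5 and Dusp6, which encode phosphatases of ERK, rose by 1.83 ± 0.25 and 1.36 ± 0.15, and Dusp10, a phosphatase of JNK and p38, by 1.15 ± 0.21. The count of 5 was 3 without the third untreated library and 2 with the first library alone for the dose.

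Other genes of signalling were among the 15 rises named for size. Nipal1, a magnesium transporter gene, rose from 4.01, 2.105 and 3.41 CPM to 25.99, 31.6 and 18.1 CPM (2.96 ± 0.34). Sgk1, a kinase induced by serum and glucocorticoids, rose from 43.3, 47.9 and 39.6 CPM to 140.1, 157 and 124 CPM (1.70 ± 0.12). Both groups were narrow for Sgk1. Shb, which encodes an adaptor of receptor tyrosine kinases, rose from 13.2, 9.47 and 7.66 CPM to 29.5, 34.4 and 32.9 CPM (1.66 ± 0.27). Mex3b, an RNA-binding protein gene, rose from 2.004, 6.84 and 7.66 CPM to 18.5, 12.5 and 20.8 CPM (1.66 ± 0.32), with an edgeR adjusted p of up to 0.0178 when a library was left out. Of 9 glucocorticoid receptor targets, 4 were higher and 2 lower (median 0.58), and the higher ones included Sgk1, Errfi1 and Klf9, at 0.68 ± 0.09. The lower ones were Zbtb16, at -1.15 and lost in 2 of the 6 fits, and Cebpd.

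Secreted signals rose in part. Of the 14 chemokine and cytokine genes tested, 5 were higher and 0 lower (median 0.42). Ccl2 (chromosome 11, 82035577 to 82037452), a chemokine for monocytes, stood at 72.1, 66.3 and 55.3 CPM in untreated cells and at 212, 213 and 169.8 CPM at 100 µg/ml (1.62 ± 0.13). Its neighbour Ccl7 rose by 1.53 ± 0.16. Il11 and Lif, cytokines of the interleukin-6 family, rose as well, Il11 from 13.6, 8.42 and 15.3 CPM to 43.2, 37.2 and 31.2 CPM (1.56 ± 0.20) and Lif from 32.8 to 33.3 CPM to 65.6 to 75.04 CPM (1.10 ± 0.16). Il6, another of that family, was spread from 4.38 to 13.2 CPM at 100 µg/ml and overlapped the untreated range of 5.11 to 8.02 CPM, and it was not called (0.43 ± 0.33). The genes Tnf, Il1a, Il1b, Csf2 and Csf3 had too few counts for a test, with at most 4 counts in the 3 libraries of the dose together. Of 15 genes of NF-kB feedback and adhesion, 3 were higher and 1 lower (median 0.15). Nfkbia, the main inhibitor of NF-kB, rose by 0.65 ± 0.11 and Nfkb2, a subunit gene, by 0.75 ± 0.16. Of the 3 rises on this list, 1 was called with the first library alone for the dose.

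Tnfaip6 (chromosome 2, 52038113 to 52056681), which encodes a protein that crosslinks hyaluronan, rose from 9.22, 13.2 and 8.09 CPM to 37.01, 46.1 and 36.2 CPM (1.9996 ± 0.19). Cd44, the hyaluronan receptor, rose by 0.60 ± 0.10, and these were the 2 members called of 11 tested hyaluronan genes. The synthase gene Has2 was at 24.05, 24.2 and 26.8 CPM in untreated cells and 18.5, 19.4 and 14.2 CPM at 100 µg/ml, short of the threshold (-0.51 ± 0.16; edgeR adjusted p = 0.0609). Bdnf, a neurotrophin gene, rose by 0.57 ± 0.12. Of 18 matrix genes 2 were higher, with Thbs1, which encodes thrombospondin 1, at 524, 430.4 and 468 CPM and then 831, 928 and 853 CPM (0.88 ± 0.10). Plaur, the urokinase receptor, rose by 0.73 ± 0.13. Hmox1, the inducible heme oxygenase, rose by 0.92 ± 0.12, 1 of 2 called among 17 NRF2 targets. The amino acid transporter genes Slc7a1 and Slc3a2 rose by 0.67 ± 0.13 and 0.47 ± 0.10, and Plk2, a polo-like kinase gene, by 0.78 ± 0.10. Calls were 0 among 17 contractile genes and 0 among 12 Wnt targets and antagonists by edgeR and by DESeq2, with 2 of either list at an unadjusted p under 0.05.

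Some feedback genes of STAT3 fell. Of 13 tested, 4 were lower and 1 higher, 8 were not called, and the median was -0.29. Socs3 (chromosome 11, 117966079 to 117970336), the inhibitor of cytokine receptors that STAT3 induces, went from 82.2, 78.9 and 67.7 CPM to 24.7, 33.2 and 24.6 CPM (-1.46 ± 0.15; edgeR adjusted p = 8.66e-10). Cebpd (chromosome 16, 15887286 to 15889545), a transcription factor gene of the acute phase, went from 262, 265 and 249 CPM to 87.2, 76.1 and 71.2 CPM (-1.72 ± 0.12). Pim1, a kinase gene, fell less, from 66.5 to 74.7 CPM to 39.3 to 47.6 CPM (-0.65 ± 0.13). In each of these the highest library of the dose lay below the lowest untreated library. Lifr, a receptor of Lif, was called at -0.43 but lost the call in 5 of the 6 fits. With the first library alone for the dose, 2 of the 4 were called. The upstream window of Socs3 holds 1 STAT site of the form TTCNNNGAA, TTCTTAGAA at -154, a form found in 7.26% of genes. Of the 3 STAT3 feedback falls with an entry this was the 1 with a match, and the form also occurs in Rasl11a among the named falls and in Sgk1 and Tnfaip6 among the named rises. Stat2, a component of the interferon-induced complex ISGF3, fell from 44.5, 51.04 and 50.2 CPM to 16.7, 20.6 and 15.3 CPM (-1.44 ± 0.25). Among 12 interferon-induced genes, 0 were called by edgeR or DESeq2 and 0 had an unadjusted p under 0.05.

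Id1, Id2 and Id3, which encode inhibitors of basic helix-loop-helix factors and are direct targets of bone morphogenetic protein (BMP) signals, were lower. Id3 (chromosome 4, 136143822 to 136145392) had 726, 782 and 815 CPM in untreated cells and 247, 208 and 196 CPM at 100 µg/ml, a difference of -1.83 ± 0.11 (edgeR adjusted p = 1.32e-16). Id1 fell from 62.9, 61.6 and 57.9 CPM to 34.8, 34.4 and 28.5 CPM (-0.89 ± 0.15) and Id2 by less (-0.61 ± 0.14). The ligand gene Bmp4 fell from 66.1, 65.3 and 54.1 CPM to 37.9, 42.5 and 29.03 CPM (-0.74 ± 0.13) and Atoh8, a BMP target, from 28.9, 25.8 and 37.5 CPM to 13.7, 12.95 and 14.2 CPM (-1.18 ± 0.21). Of 19 tested genes on the BMP list, these 5 were lower and 2 higher, with a median of -0.02. The higher ones were Fst, which encodes the activin and BMP antagonist follistatin (0.91 ± 0.13), and Smad7, an inhibitor of the pathway, which lost its call in 4 of the 6 fits (0.51). Among 16 genes of the TGF-beta list, 3 were higher and 0 lower. Inhba, which encodes the activin A subunit, rose by 0.63 ± 0.11 and Skil, a corepressor gene, by 0.59 ± 0.11. With the first library alone for the dose, 1 of these 3 and 4 of the 5 BMP falls were called.

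The matricellular CCN genes split. Ccn1 fell from 143, 128 and 139.6 CPM to 94.3, 77.7 and 79.97 CPM (-0.70 ± 0.14), Ccn4 rose from 147 to 172 CPM to 267 to 272 CPM (0.74 ± 0.10), and Ccn2 was at 0.04 ± 0.11 and not called. Amotl2, a YAP target that restrains YAP, was lower too (-0.72 ± 0.11). Txnip, an alpha-arrestin that limits glucose uptake, fell from 39.7 to 42.1 CPM to 20.2 to 29.6 CPM (-0.77 ± 0.17), and Adm, which encodes adrenomedullin, from 279 to 305 CPM to 166 to 199 CPM (-0.67 ± 0.09). Slc2a1, a glucose transporter gene, and Hk2, a hexokinase gene, rose by 0.63 ± 0.13 and 0.94 ± 0.19.

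Gata5 (chromosome 2, 180325088 to 180335503), a GATA transcription factor gene, went from 54.5, 54.2 and 60.5 CPM to 17.6, 11.3 and 15.3 CPM (-1.94 ± 0.18). The odd-skipped factor genes Osr1 and Osr2 fell together, Osr1 from 83.8, 81.6 and 69.4 CPM to 34.4, 29.95 and 30.7 CPM (-1.30 ± 0.12) and Osr2 from 13.6, 16.3 and 12.8 CPM to 3.96, 3.64 and 3.29 CPM (-1.94 ± 0.32). Neat1 (chromosome 19, 5824708 to 5845480), the long noncoding RNA that scaffolds nuclear paraspeckles, was at 168, 163 and 171 CPM and fell to 56.4, 58.7 and 59.7 CPM (-1.52 ± 0.11). Its 3 values at the dose lay close together, and far under each untreated library. The abundant nuclear RNA Malat1 stood at -0.18 and was not called.

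Clec2d, a C-type lectin gene and ligand of an inhibitory receptor of natural killer cells, fell from 121, 112 and 110.3 CPM to 30.8, 31.98 and 35.1 CPM (-1.81 ± 0.13). Rasl11a, a Ras-like GTPase gene, fell from 205, 204 and 189 CPM to 58.2, 67.2 and 47.7 CPM (-1.78 ± 0.11). Among matrix proteases, 3 of 17 genes were lower and 2 higher, beside 2.02% and 3.14% of all tested genes. Adamts15, which cleaves aggregating proteoglycans, fell from 118, 106 and 118 CPM to 39.2, 34.001 and 48.8 CPM (-1.51 ± 0.17) and Adamts5 by less (-0.54 ± 0.12), while Adamts1 rose by 0.69 ± 0.13. Timp4, an inhibitor of metalloproteinases, was called higher, but it was at 1.32, 8.095 and 8.22 CPM in the 3 libraries of the dose and at 2.004, 0.526 and 1.703 CPM in untreated cells, so that the first library lay within the untreated range. Haspin, a mitotic kinase gene, fell from 13.6, 11.1 and 16.2 CPM to 6.17, 6.07 and 3.83 CPM (-1.32 ± 0.31), and this call was lost with the first library alone for the dose. Banp, which encodes a nuclear DNA-binding protein, fell from 14.03, 22.6 and 18.3 CPM to 7.49, 6.07 and 9.31 CPM (-1.26 ± 0.24) and Ccdc9b from 34.9, 29.5 and 32.8 CPM to 15.9, 12.5 and 13.7 CPM (-1.21 ± 0.18). Of 20 cell cycle genes, 2 were lower, Top2a at -0.54 ± 0.11 and Aurka at -0.66 ± 0.14, beside 2.02% of all tested genes. The median over the 20 was -0.23, and 17 had estimates below 0.

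Genes of complement, the pathway to which C1q belongs, were not called. The 13 tested had a median of -0.07, with 0 calls by edgeR or DESeq2 and 1 at an unadjusted p under 0.05, among them C3 at -0.07 ± 0.15 and the C1 inhibitor gene Serping1 at -0.09 ± 0.09. Of 9 genes for proteins described to bind C1q, 0 were called by either tool and 1 had an unadjusted p under 0.05, with calreticulin, Calr, at -0.16 ± 0.09 and the endocytic receptor gene Lrp1 at 0.51 ± 0.18 (edgeR adjusted p = 0.0805). Of 12 heat shock genes 3 were higher, beside 3.14% of all tested genes, the largest Hspa1b at 0.65 ± 0.16, but each of these calls was lost in at least 1 of the 6 fits and all with the first library alone. Of 18 genes of the integrated stress response and amino acid supply, 2 were higher and 1 lower, beside 3.14% and 2.02% of all tested genes. The 1 lower call was lost without the third untreated library. The metallothionein genes Mt1 and Mt2 stood at 0.19 and 0.30, neither called.

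**Figure D3:**
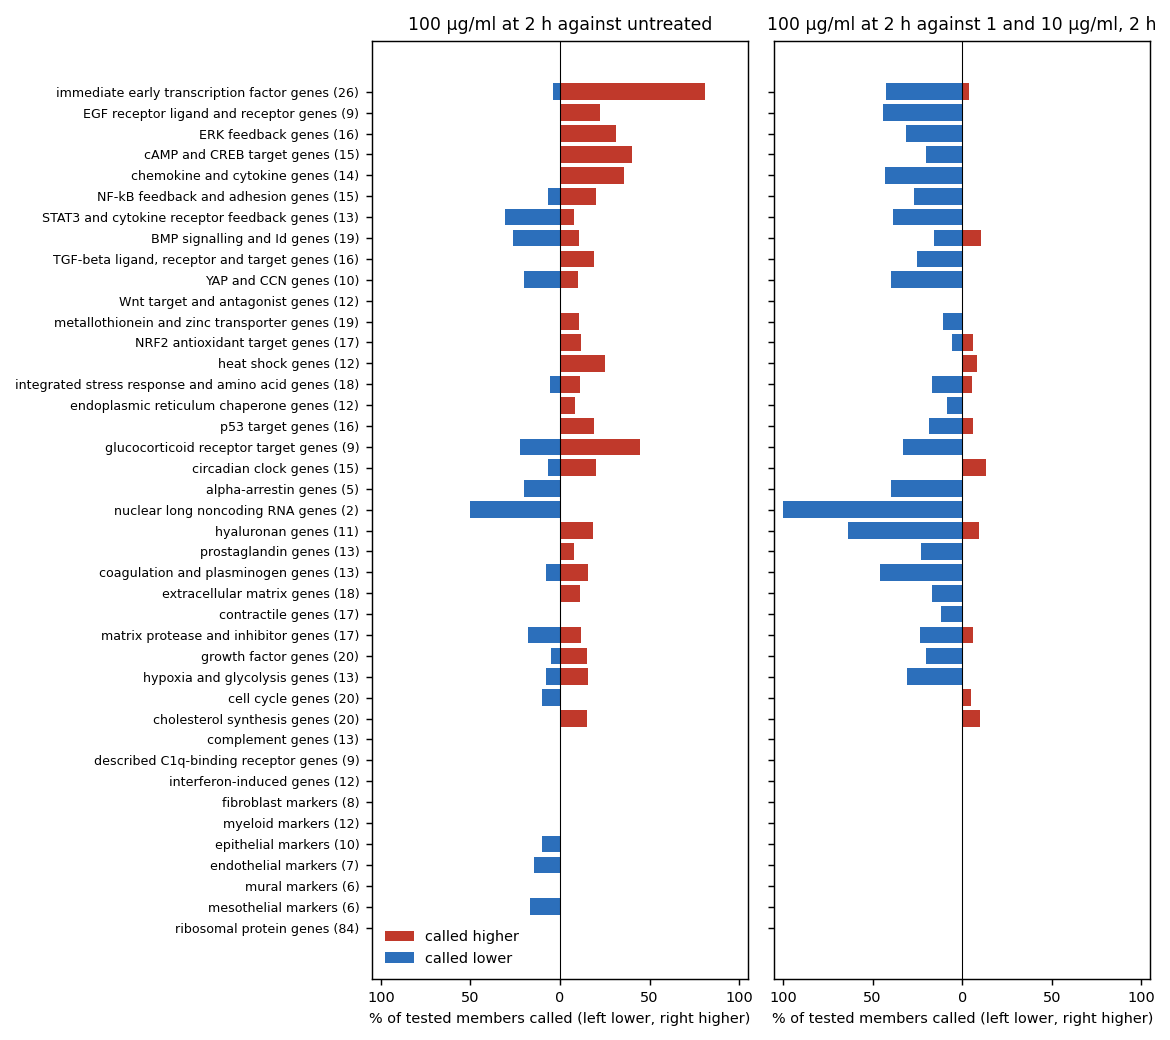
Bars give the percentage of tested members of each gene list called higher (right, red) or lower (left, blue) at 100 µg/ml and 2 h, against untreated cells in the left panel and against 1 and 10 µg/ml in the right panel, with the number of tested members in brackets. The immediate early genes reach farthest to the right in the left panel, with 21 of 26 higher, and extend mostly to the left in the right panel, with 11 of 26 lower.

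The direct comparison of doses at 2 h set the 3 libraries of 100 µg/ml against the mean of the 6 libraries of 1 and 10 µg/ml, which had the same time in culture. It called 179 genes higher and 417 lower at the high dose, which is 1.24% and 2.89% of the 14419 tested and 4.13% in sum (edgeR). Counts on the gene lists between doses stand beside these shares. Of the 179, 26 are rows on which the first library of the dose stood apart. With those rows left out of the counts, 156 genes were called higher and 401 lower. The difference was called and at least 2-fold for 0.77%, and for 8.32% of genes all libraries of the high dose lay beyond all 6 of the lower doses. The count rests on the libraries of the dose: the total of 596 was 358 without the first of them, 323 without the third and 119 with the first alone, and it was 385 when only the 9 libraries compared were fitted. The comparisons of each dose with untreated cells share the untreated libraries, and this comparison shares the high-dose libraries with the one above, so their values are given side by side only. Of the genes given below, Has1, Ier3, Il6, Ptx3 and Serpinb2 were not called between doses with the first library alone, besides those said there to lose a call.

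Immediate early and growth factor genes were lower at 100 µg/ml than at 1 and 10 µg/ml in part. Of the 26 immediate early genes, 11 were lower and 1 higher than at the lower doses (median -0.38), and the 11 were 7 without the third library of the dose and 3 with the first alone. Fosl1, at 33.96 to 50.2 CPM at 100 µg/ml, was at 80.9, 77.6 and 64.5 CPM at 1 µg/ml and 75.98, 83.8 and 102 CPM at 10 µg/ml (-0.87 ± 0.13). Egr3 differed by -1.03 ± 0.21, Btg2 by -0.71 ± 0.10 and Ier3 by -0.67 ± 0.11. The NR4A genes were not called, with Nr4a1 at 0.31 ± 0.15 and Nr4a3 at -0.28 ± 0.11, and Nr4a1 spanned 87.3 to 102 CPM at 1 µg/ml, 118 to 168 CPM at 10 µg/ml and 94.8 to 174 CPM at 100 µg/ml. Ereg was at 119.5, 147 and 104 CPM at 1 µg/ml and 157, 174 and 144 CPM at 10 µg/ml, above each of its libraries at 100 µg/ml (-1.01 ± 0.11), and Errfi1 differed in the same direction by -0.87 ± 0.10. Of the 9 genes on the receptor and ligand list 4 were lower, and of the 16 ERK feedback genes 5, with 0 higher on either list. With the first library alone for the dose these were 2 and 0, and the 5 were 3 without the third library of 10 µg/ml.

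**Figure D4:**
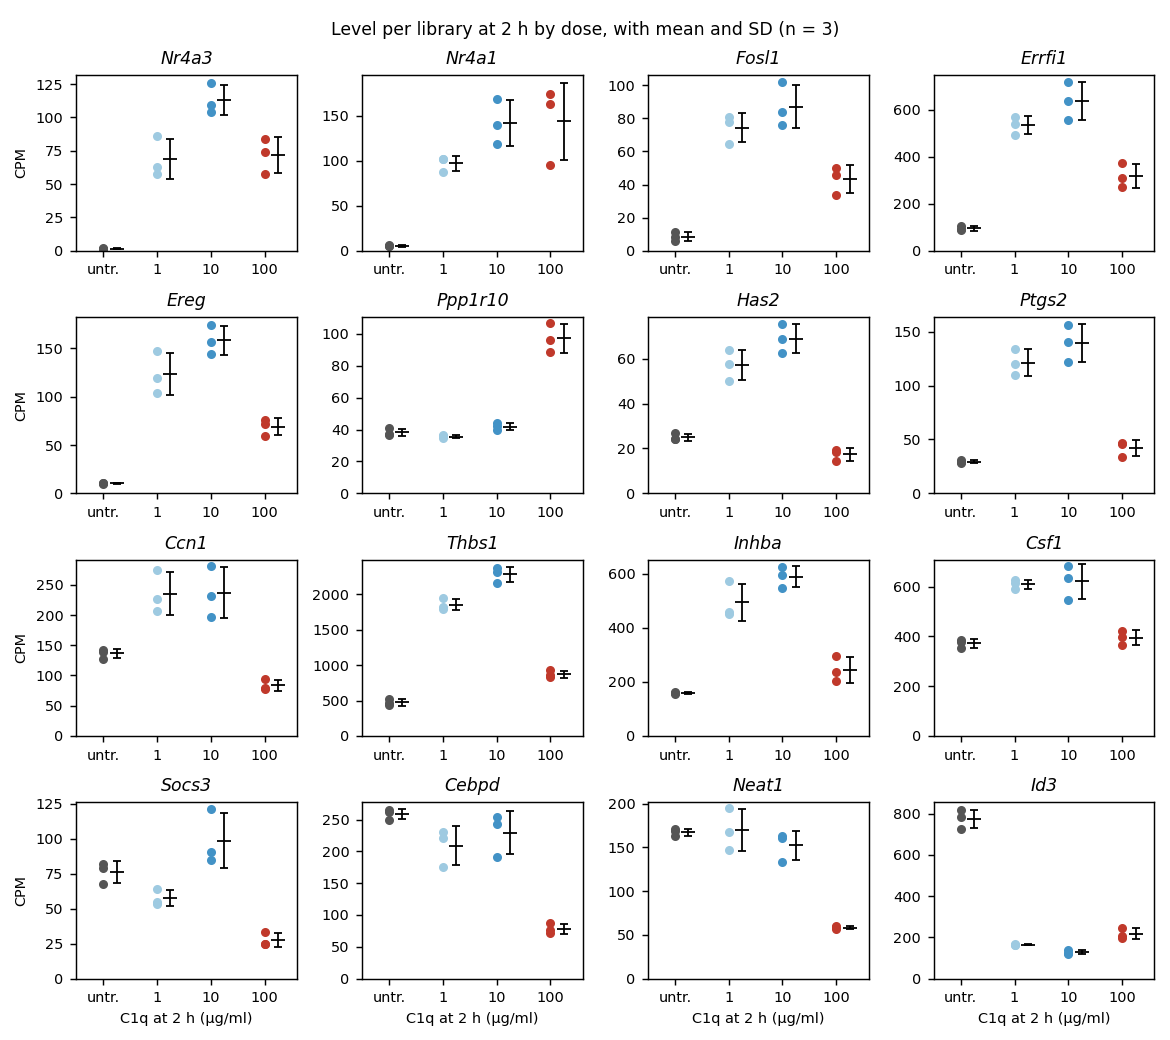
Level in CPM of 16 genes in each untreated library (0 h) and each library given C1q at 1, 10 or 100 µg/ml for 2 h, with the mean and SD (n = 3) beside the points and axes starting at 0. Has2, Ptgs2, Ccn1, Thbs1 and Inhba are high at 1 and 10 µg/ml and lower at 100 µg/ml, while Socs3, Cebpd and Neat1 are lowest and Ppp1r10 is highest at 100 µg/ml.

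Has2 and Ccn1 were among the 6 falls named for size between doses, while of 18 extracellular matrix genes 3 were lower and 0 higher. Has2, the main hyaluronan synthase of fibroblasts, was at 57.5, 63.7 and 50.3 CPM at 1 µg/ml and 68.98, 75.5 and 62.4 CPM at 10 µg/ml, against 18.5, 19.4 and 14.2 CPM at 100 µg/ml (-1.83 ± 0.13; edgeR adjusted p = 1.14e-14). Every library of the high dose lay below every untreated library as well. Of 11 hyaluronan genes, 7 were lower than at the lower doses and 1 higher (median -0.50), and 4 were lower with the first library alone. They include Has1, at -1.77 ± 0.36, Ptx3, whose protein stabilises hyaluronan, at -1.22 ± 0.22, and Tnfaip6, at -0.69 ± 0.12. Ccn1 was at 274, 226 and 207 CPM and 232, 197 and 281 CPM at the lower doses and 94.3, 77.7 and 79.97 CPM at the high one (-1.49 ± 0.13), and Ccn2 at 362 to 469.98 CPM, 441 to 499 CPM and 177 to 204 CPM (-1.22 ± 0.09). Ankrd1, a further YAP target, differed by -1.17 ± 0.16, and all 4 YAP and CCN genes called lower of 10 were called with the first library alone too. Thbs1 was at 1856 ± 83.1 CPM at 1 µg/ml and 2283 ± 107 CPM at 10 µg/ml (SD, n = 3), more than its 871 ± 50.9 CPM at 100 µg/ml (-1.24 ± 0.09). Inhba differed by -1.13 ± 0.09, and Timp3, an abundant protease inhibitor gene, by -0.56 ± 0.06.

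Inflammatory genes were part of the same gap. Ptgs2, the inducible cyclooxygenase, was at 120.2, 134 and 109 CPM at 1 µg/ml and 122, 141 and 156 CPM at 10 µg/ml, and at 45.8, 46.95 and 33.4 CPM at 100 µg/ml against 28.5 to 30.5 CPM in untreated cells (-1.61 ± 0.12 between doses). Ptger4, a receptor of the prostaglandin it makes, differed by -1.42 ± 0.17. Of 14 chemokine and cytokine genes, 6 were lower and 0 higher (median -0.46). Il6 stood at 18.6 ± 1.99 CPM and 23.6 ± 3.63 CPM at the lower doses and 8.56 ± 4.44 CPM at 100 µg/ml (SD, n = 3; -1.25 ± 0.23). Csf1, the macrophage growth factor gene, was at 590.5 to 625 CPM and 544 to 682 CPM and then 363 to 423 CPM (-0.64 ± 0.08). Of the 6, 1 was called with the first library alone. Vcam1, an adhesion molecule, differed by -0.68 ± 0.09, Nfkbiz, an inducible regulator of NF-kB, by -0.76 ± 0.11. Olr1, a scavenger receptor gene, was at 20.2 to 26.01 CPM and 24.5 to 29.4 CPM at the lower doses and 6.48 to 9.86 CPM at 100 µg/ml (-1.64 ± 0.22), and it was not called against untreated cells (0.05). Of 13 genes of coagulation and plasminogen, 6 were lower and 0 higher (median -0.37), and 3 with the first library alone. They include F3, which encodes tissue factor, at -0.71 ± 0.09, Thbd, which encodes thrombomodulin, at -0.75 ± 0.08, and Serpinb2, an inhibitor of plasminogen activators, at -3.21 ± 0.65.

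Other genes were lower at 100 µg/ml than in untreated cells and than at the lower doses. Neat1 was at 167, 147 and 195 CPM at 1 µg/ml and 163, 133 and 161 CPM at 10 µg/ml, and each library of 100 µg/ml was under 60 CPM (-1.47 ± 0.10; edgeR adjusted p = 1.95e-15). Its differences from untreated cells were 0.02 ± 0.09 at 1, -0.14 ± 0.10 at 10 and -1.52 ± 0.11 at 100 µg/ml. Cebpd was at 231, 222 and 175 CPM and 243, 191 and 254 CPM at the lower doses, with differences from untreated cells of -0.31, -0.17 and -1.72, and -1.48 ± 0.11 between doses. Socs3 was at 53.3 to 64.2 CPM at 1 µg/ml and 84.7 to 121 CPM at 10 µg/ml (-1.43 ± 0.14 between doses). For Clec2d and Rasl11a the difference from untreated cells was -1.81 and -1.78 at 100 µg/ml beside -0.78 and -0.58 at 10 µg/ml, and between doses -1.19 ± 0.12 and -1.11 ± 0.10. Txnip and Amotl2 were lower than at the lower doses too, with log2 differences of -0.998 ± 0.14 and -0.53 ± 0.10.

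On the side of the rises, Ppp1r10 (chromosome 17, 35916512 to 35932283), which encodes PNUTS, a nuclear targeting subunit of protein phosphatase 1, was at 88.5, 96.3 and 107 CPM at 100 µg/ml. It was at 36.5 to 40.9 CPM in untreated cells, 34.4 to 36.4 CPM at 1 µg/ml and 39.6 to 43.99 CPM at 10 µg/ml, so that no library of the other groups reached the lowest of the high dose (1.33 ± 0.11 between doses). Hspa1b, an inducible heat shock gene, was higher than at the lower doses by 0.60 ± 0.13. Trib3, of the integrated stress response, was higher by 0.71 ± 0.14, and neither was called with the first library alone for the dose. Dbp, a clock output gene, was at 25.5 to 28.4 CPM in untreated cells, 9.17 to 10.6 CPM at 1 µg/ml, 6.303 to 9.71 CPM at 10 µg/ml and 17.8 to 19.4 CPM at 100 µg/ml (1.14 ± 0.17). Its level at 100 µg/ml lay between untreated cells and the lower doses. Rhof, Sox12 and Smyd4, which were not called against untreated cells, were higher by 1.25 ± 0.24, 0.97 ± 0.21 and 0.75 ± 0.17, and these 3 were not called with the first library alone for the dose. Id3 differed by 0.58 ± 0.10, with 160.3 to 168 CPM at 1 µg/ml and 120.1 to 139.7 CPM at 10 µg/ml, so its fall was smaller at the high dose. Sesn1, a p53 target, was higher by 0.84 ± 0.17.

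Samples taken later at the same dose gave the levels after 2 h. Between 2 and 24 h at 100 µg/ml, 2407 genes were higher and 2807 lower, 16.7% and 19.5% of those tested (edgeR), the background for the calls at this contrast. The 2 time points also differ in time in culture. Of the 26 immediate early genes, 22 were lower and 2 higher at 24 h. Nr4a1 was at 9.898, 4.39 and 9.06 CPM, a difference of -4.22 ± 0.25 from 2 h, and Nr4a3 at 4.36, 5.85 and 5.57 CPM (-3.76 ± 0.19), still above the highest untreated library. Fosl1 was at 5.94, 4.02 and 4.53 CPM (-3.18 ± 0.22), under each untreated library. Hk2 differed from its 2 h level by -3.01 ± 0.23, Nipal1 by -2.98 ± 0.32 and Nr4a2 by -2.87 ± 0.25.

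Genes that fell at 2 h differed in their level at 24 h. Neat1 was at 166, 155 and 172 CPM, -0.03 ± 0.09 from untreated cells, and Cebpd at 222, 241 and 227 CPM (-0.17 ± 0.11). Neither difference was called by edgeR, and Neat1 reached 429 ± 31.8 CPM at 72 h (SD, n = 3). Socs3 was at 64.5 ± 10.6 CPM at 24 h, 40.97 ± 4.83 CPM at 48 h and 75.1 ± 3.56 CPM at 72 h (SD, n = 3), beside 76.3 ± 7.595 CPM in untreated cells. Id3 stood at 549 ± 25.3 CPM at 24 h and 705 ± 117 CPM at 72 h, and its untreated mean was 774 ± 45.1 CPM. At 24 h it was still called lower than in untreated cells (-0.50 ± 0.11; edgeR adjusted p = 0.000297). Adamts15 was called above untreated cells at 24 h, at 190.04, 207 and 209 CPM (0.82 ± 0.14; edgeR adjusted p = 1.13e-05), and Osr2, at 20.2, 23.4 and 16.4 CPM, was not (0.50 ± 0.22). Adamts15 was at 413 ± 14.8 CPM at 72 h. Ppp1r10 was back at 43.2, 35.1 and 37.3 CPM at 24 h. Apart from Osr2, the 6 named rises after 2 h were of genes not called against untreated cells at 2 h, with Clec3b, which encodes tetranectin, at 23.1 to 32.6 CPM at 2 h and 202 to 245 CPM at 24 h (3.002 ± 0.12), and Saa3, an acute phase gene, at 2.58 ± 0.35. Ifit1, an interferon-induced gene, Lrp11, a receptor-like gene, and Cilp, a matrix protein gene, differed by 2.42 ± 0.51, 2.41 ± 0.29 and 2.39 ± 0.31.

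**Figure D5:**
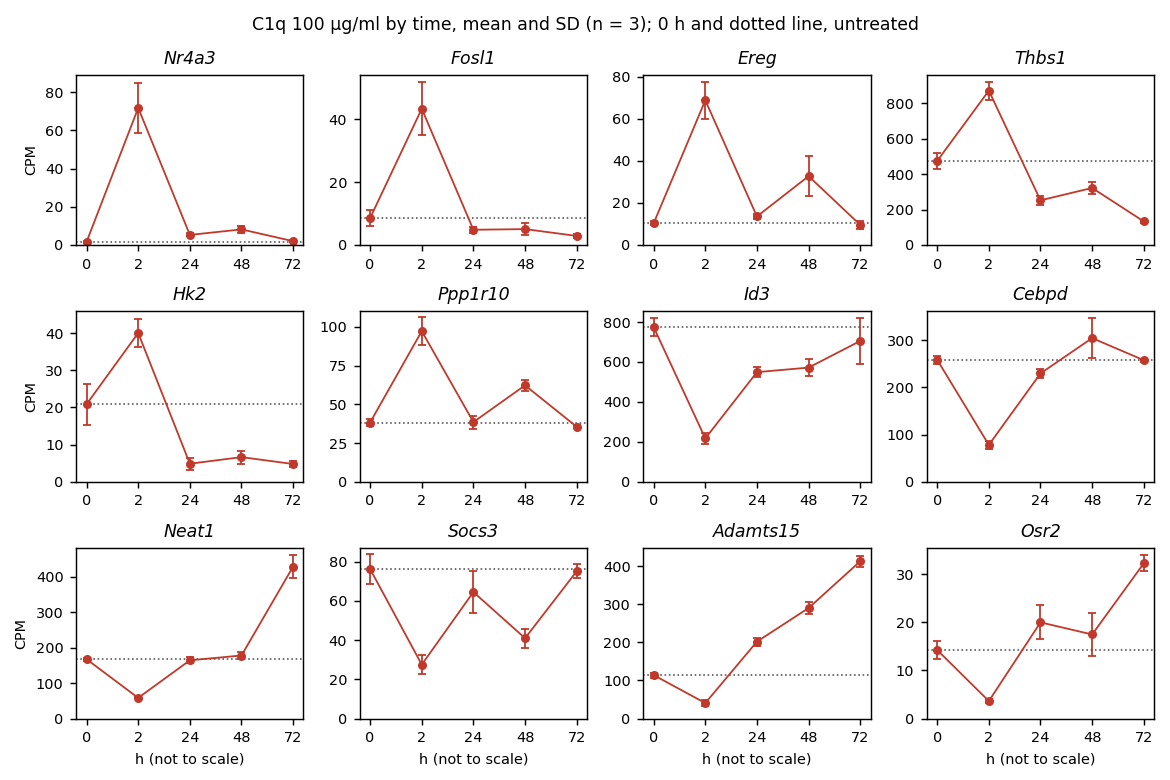
Mean level in CPM with SD (n = 3) of 12 genes at 100 µg/ml by time in hours, with untreated cells at 0 h and as the dotted line, and hours evenly spaced rather than to scale. Nr4a3, Fosl1 and Ereg are highest at 2 h, and Cebpd, Neat1 and Id3 lowest at 2 h. The means of Adamts15 and Osr2 lie above the untreated mean from 24 h on. For Osr2 the difference was not called at 24 h, and it was at 17.5 ± 4.49 CPM at 48 h beside 14.2 ± 1.85 CPM in untreated cells.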

How the data were processed

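Poly(A) RNA of 39 libraries, 13 groups of 3, was sequenced from the 5′ end, per the labels' protocols. The authors deposited 1 table of raw counts for 30012 gene rows. The submitters' processing notes name cutadapt 2.1.0, Bowtie2 2.4.2 and GRCm38. No counting tool, annotation, strand setting or use of molecular barcodes is given in the sources used here, so overlapping and antisense genes could share reads. A single row, LOC118568312, holds 6.76 to 8.07% of the counts in the 6 libraries of the main comparison and 6.10 to 14.1% over all 39.

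Groups were taken from the sample labels. Counts were filtered with filterByExpr (14419 genes left, 99.4% of counts), scaled by TMM and fitted over all 39 libraries with edgeR 4.0.16's quasi-likelihood model (limma 3.58.1, R 4.3.3), with Benjamini-Hochberg adjustment over all tested genes and a threshold of 0.05. Contrasts were 100 µg/ml at 2 h against untreated cells, against the mean of 1 and 10 µg/ml at 2 h, and against 100 µg/ml at 24 h. Differences are log2 estimates ± SE, and CPM uses the scaled library size. Genes named for their size passed the threshold, had a mean log2 CPM of at least 3, groups that did not overlap, a call in every fit leaving out a library, and a symbol that is no predicted or unnamed one. The 15 largest each way were named, 6 each way for the other contrasts, together with members of gene lists, and the values of some single genes are left out. The comparison and the lists were chosen with earlier results of these data known.

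Alternatives were DESeq2 1.42.0, RLE scaling, no filter, a robust fit, only the libraries compared, thinned counts, the table without LOC118568312, and each library left out. The 2 alternatives on the library that stood apart were chosen after seeing the data. The fit was tested on simulated data with known changes at 100 µg/ml and 2 h. It recovered 29.9% of the 1.5-fold, 70.1% of the 2-fold and 93.9% of the 4-fold changes against untreated cells. Of its 131 calls, 2 were of unchanged genes. Replicates agreed more closely in untreated cells, where the chi-square statistic per degree of freedom between libraries was 1.49 to 1.56, than at 100 µg/ml and 2 h, where it was 1.85 to 3.50, so no library was counted as a copy of another. Upstream sequences and gene positions are from RefSeq tables of GRCm38.p6, and matched 28849 symbols of the table. Figures were drawn with matplotlib 3.10.9 in Python 3.11.15.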

Additional observations from a re-analysis of the deposited data

Results flagged for a closer look

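Of the 242 genes that met the criteria for naming at 100 µg/ml and 2 h, 2 were called in opposite directions against untreated cells at this dose and at a lower dose, and also differed between the doses by edgeR. The test of the difference gave -1.49 (log2) for Ccn1, which was -0.70 ± 0.14 at 100 µg/ml and 0.78 ± 0.13 and 0.79 ± 0.13 at 1 and 10 µg/ml. It gave -0.91 for Pim1, which was -0.65 ± 0.13 at 100 µg/ml and 0.13 ± 0.12 and 0.39 ± 0.12 at the lower doses. All 3 libraries of 100 µg/ml lay below the 6 of the lower doses for both genes.

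A further 38 of the 242 were called in opposite directions at 2 h and at 24 h of 100 µg/ml, 26 of them higher at 2 h and 12 lower, with the change between the times called as well. For 9 the change at 2 h was at least 2-fold. The difference between times was -3.18 for Fosl1, -2.38 for Noct, a clock-controlled nuclease gene, -2.10 for the poliovirus receptor gene Pvr, -2.08 for Tnfrsf12a, the receptor of TWEAK, -2.03 for Maff and -1.80 for Lif. These 6 were higher than untreated cells at 2 h and lower at 24 h, as Noct was by 1.25 and then -1.12. In the other direction it was 2.33 for Adamts15, 1.95 for Ccdc9b and 1.75 for Atoh8. Time in culture differed along with time in C1q.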

How the results depend on the processing

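No paired analysis was possible because the library titles carry serial numbers that no 2 groups share. Against untreated cells, 744 genes were called, with 466 to 558 when a library was left out (282 to 373 higher, 173 to 201 lower), and 226 with the first library alone for the dose (162 higher, 64 lower). DESeq2 called 551, 171 of them lower against 291 by edgeR, and the unfiltered table gave 510 higher and 202 lower. Between doses, 596 became 323 to 595 with a library left out (91 to 205 higher, 232 to 399 lower), 385 with only the libraries compared (248 lower) and 119 with the first library alone (26 higher, 93 lower). Between times, 5214 became 4256 to 4639 (1753 to 2008 higher, 2503 to 2643 lower) and 3105 with the first library alone (1201 higher). Fits with a library left out, or with the first alone, hold fewer libraries, and for DESeq2 and for the fit of only the libraries compared the cause was not tested. The other counts stayed within 1.5 times. Keeping the call in every fit that left out a library was a condition for naming, so those fits are no further check of the named genes. Under the other alternatives, each of the 30 genes named for size against untreated cells kept its call, except Haspin with the first library alone. Between doses, Sox12 lost it in thinned counts, and Rhof, Sox12 and Smyd4 with the first library alone. Among 241 values of 187 genes only Timp4 reversed, to -0.15 against untreated cells and -0.53 between doses with the first library alone. Depth limits what small changes could be called, since thinning to the smallest library total left 617, 519 and 4663 calls.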
